A study of Sus scrofa with 12 samples.

Results

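Interferon-stimulated genes were followed in the longissimus dorsi, the loin muscle, of 12 Iberian pigs, and 12 of the 35 that could be tested had a higher level in the High MB group at an unadjusted p-value under 0.05 (34.3%, against 5.33% of all genes tested), whereas none had a lower one. A list of 43 symbols of type I and type II interferon targets, sensors and transcription factors was fixed by name, and 38 of them were carried by a pig Ensembl gene identifier with a row among the 25880 genes counted. The list was drawn up with earlier results of these data known. It holds MX2, IFI44, IFI44L, IFI6, TRIM34 and LGALS9, which the study had named as differentially expressed in these same pigs. No identifier of the name table carried DDX58 or LGALS9, and the identifiers of OAS1, IFIT3 and XAF1 had no row in the count tables. Of the 38 members, 35 passed the filter on low counts and 3 did not. These were OASL, with 10 counts in High MB pig 6 and 0 counts in each of the other 11 pigs, IRF9 with 0 to 5 counts, and UBA7 with 0 to 6 counts.

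The pigs were castrated males of a closed commercial Iberian line, fattened outdoors on acorns and grass, and chosen at opposite extremes of the estimated breeding value for muscle myoglobin (MB). The 6 pigs of the High MB group had breeding values between 0.159 and 0.206 and 2.376 to 2.559 mg of myoglobin per g of muscle, against -0.248 to -0.149 and 1.226 to 1.580 mg per g in the 6 pigs of the Low MB group. The labels name no treatment, infection or interferon challenge. Each pig gave 1 library, so the replicates were separate animals. A set of 5 libraries was sequenced deeply (High MB pigs 4 and 6, Low MB pigs 1, 5 and 6, with 59227608 to 91318334 gene counts) and 7 to a standard depth (38914271 to 40001432 gene counts), and each group difference was therefore also computed within each depth class. High MB pig 2 and Low MB pig 4 stood apart from the rest: pairs of libraries with either of them had a chi-square per degree of freedom of 175 to 738 between their gene counts, against 41.1 to 271 in the other 45 pairs.

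Interferons are secreted by cells that sense foreign nucleic acid. Type I interferon binds the receptor chains IFNAR1 and IFNAR2, and the kinases JAK1 and TYK2 then activate transcription factors, STAT2 among them, which join IRF9 and bind the interferon-stimulated response element (ISRE) in the promoters of target genes. Type II interferon acts through JAK1 and JAK2 on genes that carry the gamma-activated site (GAS). The products of the target genes block viral entry, RNA copying, translation and budding, and many are also expressed at a low level in resting tissue, in muscle fibres as well as in the macrophages and endothelial cells between them.

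The ISRE core, searched on both strands as the letters GAAA, any 2 bases and GAAA again, was found in the 300 bases before the annotated RefSeq start of 13 of 35 members with a RefSeq gene (37.1%), against 721 of 19556 protein-coding genes (3.69%). The GAS letters TTCNNNGAA were found before 4 of the 35 members (11.4%) and before 1456 of all genes (7.45%). The windows of 8 members are shown because they set 4 members with an unadjusted p-value under 0.05 in the comparison of the groups (the first 4) beside 4 members without one. Each is written on the strand of its gene in Sscrofa11.1, with the ISRE match in capitals, and reads TTTC, any 2 bases and TTTC where the match lies on the opposite strand.
IFI44L (chr6:134679213-134679264, minus strand): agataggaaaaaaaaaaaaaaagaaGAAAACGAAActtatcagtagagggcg
OAS2 (chr14:38847698-38847740, minus strand): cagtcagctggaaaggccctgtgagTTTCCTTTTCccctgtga
RSAD2 (chr3:128897905-128897964, minus strand): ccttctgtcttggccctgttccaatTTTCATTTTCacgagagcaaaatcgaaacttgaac
BST2 (chr2:60305093-60305152, plus strand): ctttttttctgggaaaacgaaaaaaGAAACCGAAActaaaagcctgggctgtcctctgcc
ISG15 (chr6:63363048-63363107, plus strand): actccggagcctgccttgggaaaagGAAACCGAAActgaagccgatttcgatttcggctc
HERC5 (chr8:130591219-130591278, minus strand): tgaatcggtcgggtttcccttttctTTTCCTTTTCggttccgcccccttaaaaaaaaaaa
IFIH1 (chr15:68985146-68985193, minus strand): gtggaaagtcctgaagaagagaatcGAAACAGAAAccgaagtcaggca
DTX3L (chr13:137961385-137961444, minus strand): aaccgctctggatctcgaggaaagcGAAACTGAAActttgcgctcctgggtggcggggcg

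The last base of the match in BST2 lay 179 bases before the annotated start and that of another match 192 bases before it, and the last base of the match in IFI44L lay 18 bases before its start. Overlapping matches were found before ISG15, IFIH1 and DTX3L, so the number of matches is larger than the number of separate stretches. Other members with a match included OASL, USP18, ZBP1 and UBA7. MX1, MX2, IFI44, IFIT1, EIF2AK2 and CMPK2 had no match, which says only that these letters were not in this window. A match is a run of letters and not a measured binding site, and the start annotated in RefSeq may not be the start used in pig muscle.

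Levels are given as CPM, the counts of a gene scaled to a common library total after TMM normalization, and the sign of a log2 fold change is positive where the High MB group was higher. In bulk muscle, fewer cells of a type and less RNA per cell cannot be told apart. A gene was called where its adjusted p-value lay under 0.10 and its log2 fold change beyond 0.58 in either direction. With edgeR's quasi-likelihood test 0 members were called, as were 0% of all 13373 genes tested. The lowest adjusted p-value of a member was 0.563, which was also the lowest of any gene. With DESeq2 and the same limits, 2 of the 35 members were called (5.71%), IFI44L with an adjusted p-value of 0.00515 and TRIM34 with 0.016, against 29 of 14417 genes in all (0.201%). At an unadjusted edgeR p-value under 0.05, 12 of the 35 members were higher in the High MB group and 0 were lower, against 5.33% and 3.13% of all genes tested.

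The log2 fold change lay above 0 in 33 of the 35 members (94.3%) against 46.9% of all genes, and over 0.58 in 13 members (37.1%) against 6.77% of all genes. Its median was 0.46 over the members and -0.02 over all genes tested. Below 0 were only IRF7 at -0.16 and GBP1 at -0.09, both smaller than their standard errors (0.18 and 0.34). Without High MB pig 2 and Low MB pig 4, 11 members were higher at an unadjusted p-value under 0.05, against 5.06% of all genes, and the median was 0.50. Of the 12 members, CMPK2 and EIF2AK2 were no longer among them. The 3 members whose lowest High MB pig lay above the highest Low MB pig were IFI44, IFI44L and TRIM34 (8.57%), a pattern met in 0.232% of all genes. By exact permutation (two-sided, on log2 CPM), 11 members were higher at a p-value under 0.05 (31.4%) against 4.78% of all genes, and 6 pigs against 6 allow no p-value under 0.00216. The members were chosen as a family whose genes answer the same signal, so they are not independent of each other, and these shares are descriptions. The study had already named IFI44, IFI44L and TRIM34 as differentially expressed in these pigs, so their place here is not a separate result.

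**Figure D1:**
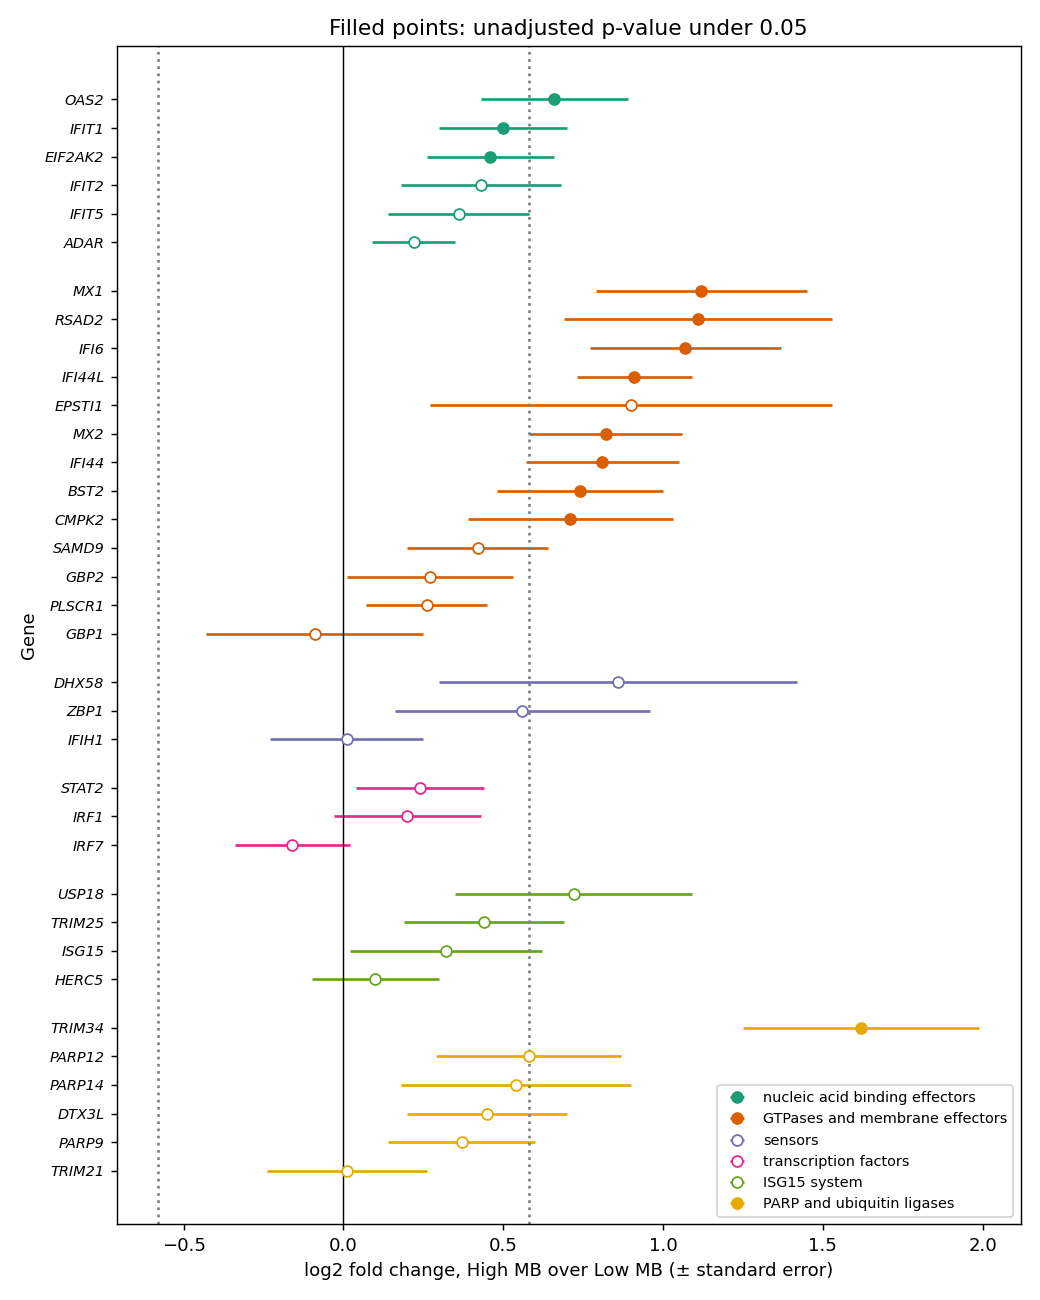
Log2 fold change (x axis, High MB over Low MB, bars ± standard error) of the 35 members tested (y axis), coloured by role; filled points had an unadjusted p-value under 0.05 and dotted lines mark 0.58 in either direction. Of the 35 points, 33 lie to the right of 0 and 12 are filled, 8 of them in the mixed group named GTPases and membrane effectors.

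The role named GTPases and membrane effectors is a mixed group that also holds other effectors, such as the nucleotide kinase gene CMPK2. Of its 13 members, 8 were higher in the High MB group at an unadjusted p-value under 0.05, against 5.33% of all genes tested. MX1 (ENSSSCG00000012077) and MX2 (ENSSSCG00000012076) are dynamin-like GTPases that trap incoming viral particles, and the genes lie 21436 bases apart on chromosome 13. MX1 stood at 1.70, 4.17, 4.19, 1.63, 2.40 and 2.94 CPM in High MB pigs 1 to 6 and at 1.06, 0.63, 1.54, 1.62, 0.891 and 2.11 CPM in Low MB pigs 1 to 6. The groups met only through Low MB pig 6, which exceeded High MB pigs 1 and 4, and the means were 2.84 ± 1.15 and 1.31 ± 0.547 CPM (SD, n = 6 each). The fold change of MX1 was 2.17 (log2 1.12, SE 0.33, unadjusted p = 0.00434). MX2 stood at 2.75, 4.17, 5.07, 2.61, 4.55 and 3.24 CPM in the High MB pigs and at 1.87, 2.88, 1.15, 2.08, 2.02 and 2.66 CPM in the Low MB pigs. Here Low MB pig 2 exceeded High MB pigs 1 and 4, and Low MB pig 6 exceeded High MB pig 4. The log2 fold change of MX2 was 0.82 (SE 0.24, unadjusted p = 0.00402). The paired genes of this family are alike in sequence, and reads that fit both equally well may not have been counted on either.

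IFI44 (ENSSSCG00000003763) and IFI44L (ENSSSCG00000027660), neighbours 10372 bases apart on the minus strand of chromosome 6 (134634679 to 134649857 and 134660230 to 134679212), encode related cytoplasmic proteins. IFI44L had 8.05, 5.17, 6.82, 6.39, 8.24 and 7.05 CPM in the High MB pigs and 2.95, 3.10, 2.80, 4.45, 3.85 and 5.06 CPM in the Low MB pigs. All 6 High MB pigs lay above all 6 Low MB pigs, although High MB pig 2 and Low MB pig 6 differed by little. Its log2 fold change of 0.91 (SE 0.18, unadjusted p = 0.000155, exact permutation p = 0.00216) had the lowest p-value of the members, and it stayed between 0.85 and 1.02 when any single pig was left out. IFI44 had 2.57, 3.01, 3.24, 2.51, 3.69 and 2.70 CPM in the High MB pigs against 1.97, 1.83, 1.51, 0.746, 1.59 and 2.42 CPM in the Low MB pigs. Again no Low MB pig reached a High MB pig, and the log2 fold change was 0.81 (SE 0.24, unadjusted p = 0.00449).

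IFI6 (ENSSSCG00000034570), which encodes a small membrane protein that protects cells from death during infection, had the highest level per kilobase of transcript among the members (15.0 CPM per kb on average over the 12 pigs). Its level was 8.52, 8.70, 25, 16.1, 12.8 and 17.9 CPM in the High MB pigs and 9.49, 5.45, 3.31, 5.89, 10.3 and 7.87 CPM in the Low MB pigs. High MB pigs 1 and 2 fell within the range of the Low MB group and the other 4 lay above it. The fold change was 2.10 (log2 1.07, SE 0.30, unadjusted p = 0.00299). With the group in the model, the log2 difference of IFI6 between deep and standard libraries was 0.63 (unadjusted p = 0.036, adjusted p = 0.338 with edgeR).

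BST2 (ENSSSCG00000033453), or tetherin, which holds budding virions at the cell surface, had 9.79 CPM per kb on average. It stood at 3.96, 8.26, 10.7, 4.36, 5.38 and 6.60 CPM in the High MB pigs and at 3.75, 2.60, 3.23, 3.78, 3.74 and 6.35 CPM in the Low MB pigs. Of the Low MB pigs, 5 lay below every High MB pig, and Low MB pig 6 lay among them. The log2 fold change was 0.74 (SE 0.26, unadjusted p = 0.0136).

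RSAD2 (ENSSSCG00000008648) encodes viperin, which makes a nucleotide that ends viral RNA chains, and CMPK2 (ENSSSCG00000008647), a mitochondrial nucleotide kinase, lies 5585 bases away on the opposite strand of chromosome 3. RSAD2 had 1.49, 1.45, 7.69, 1.93, 3.16 and 4.00 CPM in the High MB pigs and 1.82, 1.45, 0.795, 0.824, 2.39 and 1.76 CPM in the Low MB pigs. The groups overlapped, and the mean of the High MB group leaned on pig 3. The log2 fold change of 1.11 (SE 0.42, unadjusted p = 0.0185) was 0.67 without High MB pig 3, with an unadjusted p-value of 0.0802, and the exact permutation p-value over all pigs was 0.0584. CMPK2 had 1.16, 1.83, 3.85, 1.15, 2.69 and 2.60 CPM in the High MB pigs against 1.16, 1.00, 0.975, 1.31, 1.99 and 1.61 CPM in the Low MB pigs. High MB pig 3 was the highest for CMPK2 as well, High MB pigs 1 and 4 were at the level of the Low MB group, and the log2 fold change was 0.71 (SE 0.32, unadjusted p = 0.04, exact permutation p = 0.0931).

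**Figure D2:**
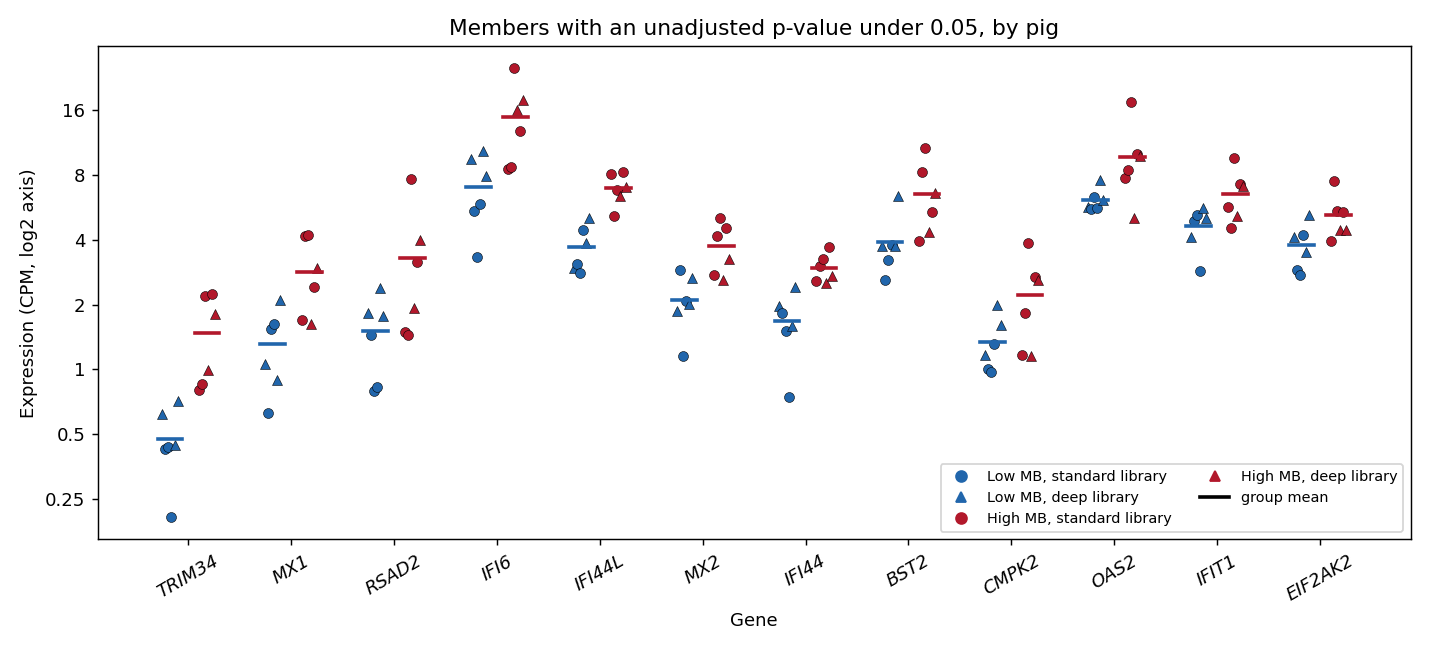
Level in CPM (y axis, log2 scale) of the 12 members with an unadjusted p-value under 0.05 (x axis, by falling log2 fold change) in each pig; red marks the High MB group, blue the Low MB group, triangles the deep and circles the standard libraries, and bars the group means. The groups stay apart in TRIM34, IFI44L and IFI44 and overlap in the other 9 genes.

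The other 5 genes of this role had no p-value under 0.05. EPSTI1 had a log2 fold change of 0.90 with a standard error of 0.63 on 0 to 51 counts per pig. SAMD9, a restriction factor of poxviruses, had a log2 fold change of 0.42 (SE 0.22), and PLSCR1, a phospholipid scramblase, had 0.26 (SE 0.19). GBP1 (ENSSSCG00000024973) and GBP2 are guanylate-binding GTPases that gather on the vacuoles of intracellular microbes, and GBP2 had a log2 fold change of 0.27 (SE 0.26). GBP1 stood at 3.78, 4.84, 8.60, 9.12, 8 and 6.66 CPM in the High MB pigs and at 4.72, 3.43, 4.00, 7.03, 8.43 and 15.8 CPM in the Low MB pigs. Low MB pig 6 was the highest of all, and the log2 fold change of -0.09 (SE 0.34) became 0.31 without that pig, so these data give GBP1 no direction.

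Among the effectors that bind nucleic acid, 3 of 6 members tested were higher at an unadjusted p-value under 0.05, against 5.33% of all genes tested. OAS2 (ENSSSCG00000009881), which makes the oligoadenylates that switch on RNase L, had 7.72, 8.41, 17.4, 5.06, 9.96 and 9.82 CPM in the High MB pigs and 5.66, 5.55, 6.34, 5.64, 7.59 and 6.09 CPM in the Low MB pigs. Of the High MB pigs, 5 lay above all Low MB pigs, and High MB pig 4 lay below all of them. The log2 fold change of OAS2 was 0.66 (SE 0.23, unadjusted p = 0.0119) and 0.41 without High MB pig 3 (unadjusted p = 0.034). IFIT1 (ENSSSCG00000010452), which binds RNA that lacks the cap of the host, had 5.69, 4.53, 9.60, 5.17, 7.26 and 7.07 CPM in the High MB pigs against 4.11, 4.90, 5.23, 2.86, 5.62 and 5.04 CPM in the Low MB pigs. As many as 4 High MB pigs exceeded all Low MB pigs, with a log2 fold change of 0.50 (SE 0.20, unadjusted p = 0.028) that was 0.36 without High MB pig 3 (unadjusted p = 0.0852). EIF2AK2 (ENSSSCG00000008496), the kinase that halts translation on binding double-stranded RNA, had 3.96, 7.48, 5.44, 4.46, 5.36 and 4.45 CPM in the High MB pigs against 4.11, 2.88, 2.74, 4.20, 3.52 and 5.20 CPM in the Low MB pigs. A total of 3 High MB pigs lay above the Low MB range and the others within it, with a log2 fold change of 0.46 (SE 0.20, unadjusted p = 0.0365) that was 0.34 without High MB pig 2 (unadjusted p = 0.0858). The other 3 had log2 fold changes of 0.43 (SE 0.25) for IFIT2, 0.36 (SE 0.22) for IFIT5 and 0.22 (SE 0.13) for ADAR, which edits adenosine in double-stranded RNA.

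TRIM34 (ENSSSCG00000014672) had the largest log2 fold change of the members and was the only one of the 6 PARP and ubiquitin ligase genes with a p-value under 0.05. It stood at 0.798, 0.851, 2.18, 0.998, 2.23 and 1.81 CPM in the High MB pigs and at 0.617, 0.425, 0.436, 0.206, 0.446 and 0.709 CPM in the Low MB pigs. No Low MB pig reached the lowest High MB pig, on 8 to 168 counts per pig. The fold change was 3.08 (log2 1.62, SE 0.37, unadjusted p = 0.000533, exact permutation p = 0.00216), and the log2 value lay between 1.47 and 1.77 with any 1 pig left out. TRIM34 belongs to a cluster of near copies whose reads can be shared, and the study names this identifier after another TRIM gene of the cluster, so which copy was measured is uncertain.

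PARP12 and PARP14, ADP-ribosyltransferases, had log2 fold changes of 0.58 (SE 0.29, unadjusted p = 0.0634) and 0.54 (SE 0.36). PARP9 and its partner DTX3L, a ubiquitin ligase, had 0.37 (SE 0.23) and 0.45 (SE 0.25), and their genes overlap by 395 bases on opposite strands at their starts on chromosome 13, where reads cannot be told apart in a library that does not mark the strand. TRIM21, a cytosolic antibody receptor and ubiquitin ligase, had nearly equal means of 1.58 ± 0.408 and 1.56 ± 0.436 CPM (SD, n = 6 each).

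None of the 4 tested genes of the ISG15 system had a p-value under 0.05. ISG15 is a ubiquitin-like protein that is joined to other proteins, UBA7 activates it, HERC5 attaches it and USP18 removes it. ISG15 stood at 1.90, 2.03, 6.5, 2.28, 2.81 and 3.73 CPM in the High MB pigs and at 1.94, 3.03, 2.21, 3.68, 2.64 and 2.00 CPM in the Low MB pigs. High MB pig 3 stood alone at the top, and the log2 fold change of 0.32 (SE 0.30) was -0.01 without it. USP18 had a log2 fold change of 0.72 (SE 0.37, unadjusted p = 0.0692), which was 0.47 without the same pig, and TRIM25, the ligase that aids RNA sensing, had 0.44 (SE 0.25, unadjusted p = 0.0955, exact permutation p = 0.0368).

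HERC5 (ENSSSCG00000030548) had the highest CPM of the members and the second-highest level per kilobase (10.7 CPM per kb). It stood at 62.2, 74.3, 50.8, 46.1, 70.1 and 43.3 CPM in the High MB pigs and at 55.0, 44.9, 81.8, 56.2, 32.0 and 53.2 CPM in the Low MB pigs. The highest and the lowest pig both belonged to the Low MB group, and the log2 fold change was 0.10 (SE 0.20) and -0.01 without Low MB pig 5. The log2 difference of HERC5 between deep and standard libraries was -0.45 (unadjusted p = 0.0223, adjusted p = 0.302 with edgeR).

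The sensors and the transcription factors of the list also gave no p-value under 0.05. DHX58 and IFIH1 sense double-stranded RNA in the cytosol and ZBP1 senses nucleic acid in the Z form, and their log2 fold changes were 0.86 (SE 0.56), 0.01 (SE 0.24) and 0.56 (SE 0.40). DHX58 was scarce, with 2 to 70 counts per pig, which leaves its difference wide. STAT2, a factor of the type I pathway, had a log2 fold change of 0.24 (SE 0.20) and IRF1, an early target of interferon gamma, of 0.20 (SE 0.23). IRF7 (ENSSSCG00000012853), the factor that amplifies type I interferon production, had 4.07, 5.13, 5.41, 6.42, 5.01 and 5.96 CPM in the High MB pigs and 9.09, 5.55, 5.46, 4.20, 5.76 and 5.68 CPM in the Low MB pigs. Low MB pig 1 stood above all others, and without it the log2 fold change of IRF7 was 0.00. A p-value that misses the threshold does not show that these genes were equal in the groups.

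The pigs did not contribute evenly. High MB pig 3 had the highest level of 12 of the 35 members, High MB pig 5 of 8, High MB pig 2 of 6 and Low MB pig 6 of 5. The lowest level was found in Low MB pig 3 for 10 members and in Low MB pig 4 for 9. The median rank over the members, from 1 for the lowest pig to 12 for the highest, was 11 in High MB pig 3 and 5 in High MB pig 1, and among the Low MB pigs it ran from 2 to 8, Low MB pig 6 being at 8. High MB pig 1 therefore stood below Low MB pigs 5 and 6 by this measure. Without High MB pig 3, 8 of the 12 members still had an unadjusted p-value under 0.05, and CMPK2, EIF2AK2, IFIT1 and RSAD2 did not. In the same fit 5.25% of all genes were higher at this limit. The 12 had been picked by this p-value over all 12 pigs.

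**Figure D3:**
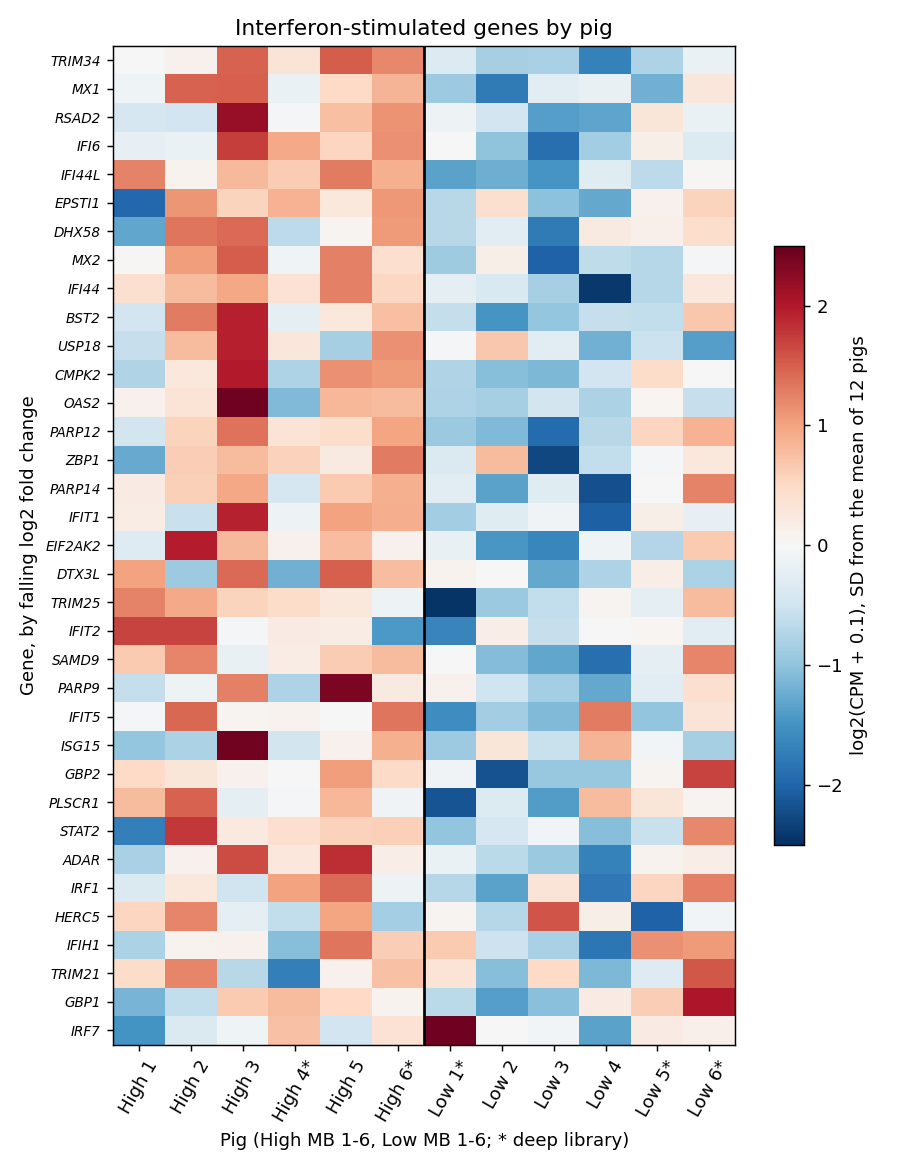
Level of the 35 members tested (rows, by falling log2 fold change) in each of the 12 pigs (columns, asterisks for deep libraries), as log2(CPM + 0.1) in standard deviations from the mean of the gene over the 12 pigs. High MB pig 3 holds the highest value of 12 genes, and Low MB pigs 3 and 4 the lowest values of 10 and 9.

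For most members the High MB group was higher in both depth classes, and the difference was mostly larger in the standard libraries. The deep class held only 2 High MB and 3 Low MB pigs, and no p-value is given within a class. Among the 5 deep libraries, 27 of 35 members (77.1%) had a log2 fold change above 0, against 51.8% of all genes, and among the 7 standard libraries 34 members (97.1%) did, against 50.4%. The value lay above 0 in both classes in 27 members, against 32.6% of all genes. Medians of 0.29 (deep) and 0.74 (standard) compared with 0.01 and 0.00 over all genes. In 30 of 35 members (85.7%) the value was larger within the standard libraries, against 49.4% of all genes. TRIM34 had a log2 fold change of 1.30 among deep and 2.08 among standard libraries, IFI44L 0.81 and 1.04, IFI6 0.92 and 1.5, MX1 0.81 and 1.31, and OAS2 0.25 and 0.90. The value among the deep libraries was also small for BST2 (0.30, against 1.15 among the standard ones), CMPK2 (0.29 and 1.12) and EIF2AK2 (0.10 and 0.77).

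Tested as an interaction of group and depth class, 3 members (8.57%) had an unadjusted p-value under 0.05, against 1.44% of all genes, and every adjusted p-value of a member was 1. These were PARP14, with log2 fold changes of -0.02 and 1.33 in the deep and standard libraries (unadjusted p = 0.0478), SAMD9 with 0.09 and 0.89 (0.0496) and GBP2 with -0.14 and 0.86 (0.0335). The number was 0 without High MB pig 4, without High MB pig 5 or without Low MB pig 6, 1 without Low MB pig 2 and 6 without High MB pig 1. No share of all genes stands beside these counts, which show only that the number was unstable. With the depth class as a covariate, 14 members were higher at an unadjusted p-value under 0.05 (40%) against 6.03% of all genes, the same 12 and also PARP12 and SAMD9. Between deep and standard libraries themselves, IFI6 and IRF7 (5.71% of the members) were higher in the deep libraries at an unadjusted p-value under 0.05 and HERC5 (2.86%) was lower, shares not above the 5.78% and 8.08% of all genes, and no adjusted p-value of a member was under 0.302. The 3 became 6 without High MB pig 3, 7 without High MB pig 4 and 1 without Low MB pig 3. No share of all genes stands beside these counts, so the comparison of shares covers the fit of all 12 pigs only. A level above that of the standard libraries was found in the deep ones for 23 of 35 members (65.7%), against 48.6% of all genes.

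**Figure D4:**
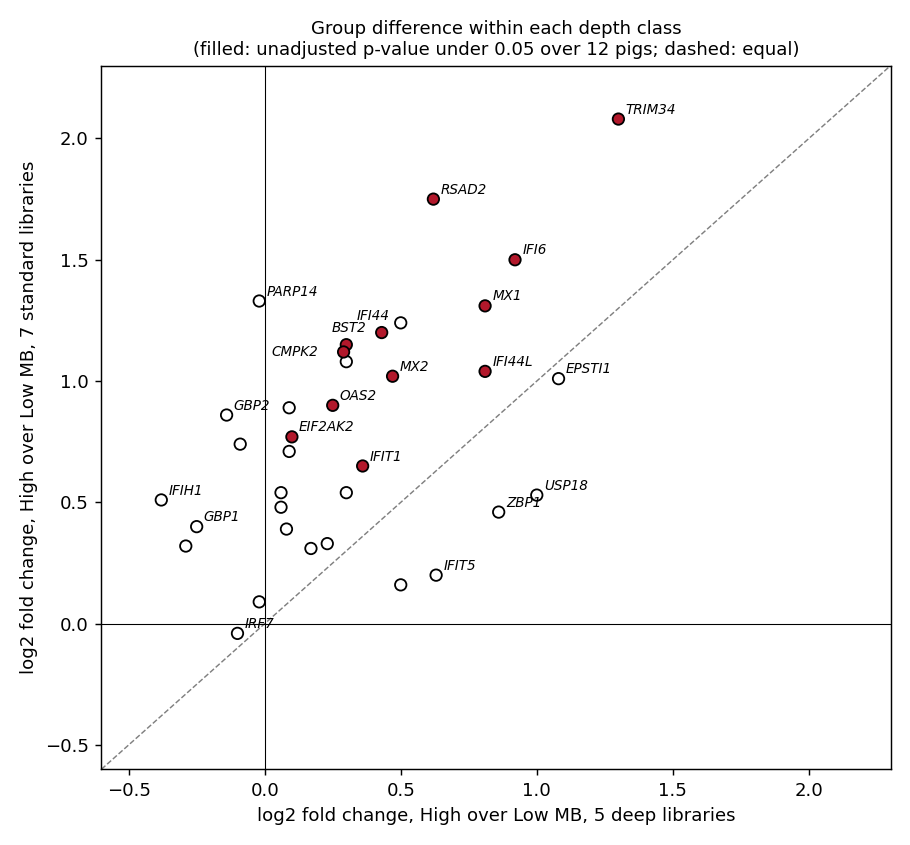
Log2 fold change, High MB over Low MB, of the 35 members within the 5 deep libraries (x axis) and within the 7 standard libraries (y axis); filled points had an unadjusted p-value under 0.05 over all 12 pigs and the dashed line marks equal values. Of the 35 points, 30 lie above the dashed line and 27 lie above 0 on both axes.

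The rest of the pathway was read from the same analysis of all genes. Of 111 further genes of the pathway, listed by function, 83 had a row and 71 were tested, of which 9 had a higher level and 1 a lower level in the High MB group (unadjusted p-value under 0.05; 17 and not 9 without Low MB pig 6). These shares of 12.7% and 1.41% stood beside 5.33% and 3.13% of all genes. A log2 fold change above 0 was found for 54 of the 71 (76.1%, against 46.9% of all genes), with a median of 0.16 (all genes -0.02). Among ligands, receptors and JAK-STAT genes, 0 of 9 tested were higher and 1 was lower. IFNAR1 and IFNAR2, the type I receptor chains, had log2 fold changes of 0.32 (SE 0.19) and 0.22 (SE 0.28). JAK1, the kinase shared by both receptors, had 152 ± 24.1 CPM in the High MB group and 183 ± 13.8 CPM in the Low MB group (SD, n = 6 each) and a log2 fold change of -0.27 (SE 0.11, unadjusted p = 0.0312). The gene of interferon beta, IFNB1, had 0 counts in every pig, which allows up to 3 counts per library by counting error, and that of interferon gamma, IFNG, was under the filter on low counts. None of 10 tested sensors and adaptors and none of 14 tested negative regulators had a p-value under 0.05.

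In the IRF family outside the members, IRF5 and IRF8, which act in myeloid and lymphoid cells, were 2 of 6 tested genes with a higher level, at log2 fold changes of 1.05 (SE 0.40, unadjusted p = 0.0192) and 0.78 (SE 0.31, unadjusted p = 0.026). Of 32 further interferon targets, 7 were higher. NMI had a log2 fold change of 0.84 (SE 0.27), its partner IFI35 of 0.53 (SE 0.21), LY6E of 0.65 (SE 0.23) and HERC6 of 0.57 (SE 0.19). PSMB8 and PSMB10, subunits of the immunoproteasome, had 0.48 (SE 0.20) and 0.34 (SE 0.14), and SERPING1, the inhibitor of complement C1, had 0.44 (SE 0.17). The chemokine genes CXCL9 and CXCL10, typical targets of interferon gamma, had -0.04 (SE 0.45) and 0.03 (SE 0.40).

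Markers of other cell types were read from the same analysis. Of 12 macrophage and dendritic cell markers, all tested and none at 0 in every pig, 12 had a log2 fold change above 0 and 8 an unadjusted p-value under 0.05 with the High MB group higher, against 46.9% and 5.33% of all genes, and the median was 0.93. Their summed level was 183 to 302 CPM in the High MB pigs and 133 to 199 CPM in the Low MB pigs, so that High MB pigs 1 and 6 (192 and 183 CPM) lay within the Low MB range. ITGAM made up much of these sums, with means of 136 and 114 CPM and a log2 fold change of 0.25 (SE 0.19). Without it the sums were 73.5 to 177 CPM in the High MB and 34.4 to 83.4 CPM in the Low MB pigs, and Low MB pigs 4 and 6 (76.5 and 83.4 CPM) lay above High MB pigs 1, 3 and 6. CD209 had a log2 fold change of 1.86 (SE 0.43, unadjusted p = 0.000602) and C1QA, a subunit of complement C1q, of 0.93 (SE 0.26). High MB pig 3, which was highest for more members than any other pig, had 226 CPM of these markers, and High MB pig 2 had the highest sum of 302 CPM. The part that macrophages have in the levels of the interferon-stimulated genes was not tested.

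Fibroblast markers were higher in 2 of 5 genes tested (summed level 533 to 944 CPM in the High MB and 275 to 707 CPM in the Low MB pigs), red blood cell markers in 2 of 2 (66.4 to 146 against 38.3 to 84.3 CPM), adipocyte markers in 1 of 4 (53.0 to 221 against 33.9 to 192 CPM), plasmacytoid dendritic cell markers in 1 of 2 (16.1 to 20.9 against 12 to 18.9 CPM) and T and NK cell markers in 1 of 8 (6.06 to 11.4 against 3.63 to 8.84 CPM), each at an unadjusted p-value under 0.05, which 5.33% of all genes reached in this direction. The plasmacytoid dendritic cell marker with this p-value was IRF8, counted above in the IRF family, whereas TCF4, the more abundant one, had a log2 fold change of 0.16 (SE 0.14), and IL3RA, CLEC4C and LILRA4 had no row. Endothelial markers had no p-value under 0.05 in 4 genes tested (114 to 157 against 70.1 to 175 CPM), and neither had B and plasma cell markers in 2 (7.72 to 10.5 against 7.46 to 11.5 CPM). Neutrophil markers with a row were under the filter on low counts. The muscle fibre markers ACTA1, CKM, TNNT3 and DES were abundant in every pig, with summed levels of 37700 to 85400 CPM in the High MB and 64200 to 115000 CPM in the Low MB pigs and no p-value under 0.05. Their part in the results, and that of the other cell types, was not tested.

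Beside the promoter letters shown above, 5 of the 11 tested members with an ISRE match had an unadjusted p-value under 0.05, with a median log2 fold change of 0.66, and 6 of the 21 tested members without a match, with a median of 0.44. The difference between members with and without a match was not tested.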

How the data were processed

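Per the labels and the study's methods, the authors used Trim Galore on the paired reads, HISAT2 for alignment (Sscrofa11.1) and HTSeq for counting, and deposited raw counts per gene that were not normalized; annotation release, strand and overlap settings are not given in the sources used here. Of the assigned, ambiguous and no-feature reads together, 47.03% to 48.18% per pig were assigned to a gene. Uncounted were the ambiguous reads (at most 1.13%) and those in no feature (50.86% to 52.02%). Counts per transcript were not used. Pigs were grouped by their labels. All genes were fitted with edgeR 4.0.16 in R 4.3.3 (TMM, filterByExpr, quasi-likelihood test, Benjamini-Hochberg adjustment, no covariate); standard errors came from the test statistic. DESeq2 1.42.0 was an alternative because the study used it. Both were tested on simulated data. Permutation tests were exact, two-sided and on log2 CPM (prior count 2). Depth classes follow the study's read totals. Symbols, coordinates and sequences came from a name table and RefSeq (Sscrofa11.1), with lengths for 35 members.

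The members, lists and tests were chosen with earlier results of these data known. Per-pig values are given for members with an unadjusted p-value under 0.05 or groups that did not overlap, the 3 highest per kilobase and the 2 lowest log2 fold changes, and for ISG15, which was added after its values were seen. Other pathway genes are named at an unadjusted p-value under 0.05, with JAK1, both IFNAR chains and 1 further gene always; that gene and a promoter window are not reported here. CXCL9, CXCL10, CD209, C1QA, ITGAM and TCF4 were named after their values were seen. The alternatives were other size factors, DESeq2, robust estimation, other filters and limits, the depth class or individual number in the model, removal of the 10 genes with the highest counts, another prior count, and each pig left out; leaving out High MB pig 2 and Low MB pig 4 together was added after seeing the data.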

Additional observations from a re-analysis of the deposited data

Results flagged for a closer look

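In 70 groups of 6 pigs (35 members in 2 groups), 3 held a pig far from the other 5: its gap to the nearest pig, as a share of the group's whole range, was over Dixon's 95% critical value. Chance alone flags about 1 group in 20. STAT2 was at 8.23 CPM in Low MB pig 6 and at 4.66 to 5.98 CPM in the other Low MB pigs. BST2 was at 6.35 CPM in the same pig and at 2.60 to 3.78 CPM in the others. IRF7 was at 9.09 CPM in Low MB pig 1 and at 4.20 to 5.76 CPM in the others.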

How the results depend on the processing

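With DESeq2 in place of edgeR, the genes called went from 0 to 29 and the members called from 0 to 2, and no other alternative called a gene. The members higher at an unadjusted p-value under 0.05 numbered 12 in the main analysis, 8 to 17 with a pig left out, and 10 to 14 under the other alternatives, and none was lower. With a pig left out, the share of all genes higher in this way ran from 3.88% (without Low MB pig 1, 10 members) to 7.24% (without Low MB pig 6, 17 members). The members above 0 numbered 31 to 34 and the median log2 fold change of the members was 0.41 to 0.58 with a pig left out. The members that differed between deep and standard libraries numbered 1 to 7, those whose group difference differed between depth classes 0 to 6, and the further pathway genes higher at an unadjusted p-value under 0.05 6 to 17, with a pig left out. The count of further pathway genes was 9 with all pigs and 17 without Low MB pig 6. For the counts by depth class the share of all genes with a pig left out is not given. GBP1 changed sign with the depth class as a covariate (0.10) and with a pig left out (-0.22 to 0.31). Without High MB pig 2 and Low MB pig 4 together, the log2 fold change of GBP1 was 0.00. HERC5 changed sign without Low MB pig 5 (-0.01 to 0.27 with a pig left out). IRF7 reached 0.00 without Low MB pig 1 (-0.22 to 0.00 with a pig left out). The cause of these changes was not tested. CMPK2, EIF2AK2, IFIT1 and RSAD2 lost their unadjusted p-value under 0.05 in 9, 8, 5 and 2 of 22 alternatives. With at least 10 counts required in every pig, TRIM34 was not tested.

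With the individual number of the labels as a replicate block, 10 members were higher at an unadjusted p-value under 0.05 (5.01% of all genes were), 9 of them among the 12, and GBP1 had a log2 fold change of 0.05. Pigs of the same number were not alike (correlations of their deviations between -0.212 and 0.144, and none was closest to its own number), so the number is only a name.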
